A study of Mus musculus with 12 samples.

Results

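Tbx2 and Tbx3 were examined as β-catenin and H3K27ac landscapes in mouse forelimb buds at E10.5, 6 h after injection of pregnant females with C59 or its solvent DMSO. A landscape comprised every ChIP-seq summit (the highest point of an enriched region) within 200 kb of the gene body, except summits closer to the T-box neighbours Tbx4 (for Tbx2) or Tbx5 (for Tbx3). The rule found 208 of the 268431 summit rows in the 12 deposited peak lists, 121 at Tbx2 and 87 at Tbx3. Of these, 152 rows came from the 8 replicate lists and 56 from the 4 consensus lists, which the authors called on both replicates together.

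All embryos were of the wild type on the Swiss Albino background, and the groups differed in the agent injected. C59, given at 10 µg/g body weight, inhibits porcupine, an enzyme that cells need to secrete WNT ligands, and the DMSO embryos were the wild-type controls. Each library held 20 pooled forelimb buds, so the values are averages over mesenchyme, ectoderm and all other cells of the bud. Each antibody and treatment had 2 replicates, so the smallest p that an exact permutation test allows is 0.333.

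Tbx2 and Tbx3 encode closely related T-box transcription factors that act mainly as repressors. In the limb bud, both are expressed in anterior and posterior margins of the mesenchyme, and each lies next to a T-box gene that controls limb initiation, Tbx4 for the hindlimb and Tbx5 for the forelimb. In canonical WNT signaling, stabilised β-catenin enters the nucleus and joins TCF/LEF factors at their DNA sites, whereas H3K27ac (acetylation of lysine 27 of histone H3) marks active promoters and enhancers.

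On the build mm10 with the GENCODE M21 annotation, Tbx2 (ENSMUSG00000000093) lies on the plus strand at chr11:85832551-85841948, and Tbx4 begins 44.5 kb past its end. Tbx3 (ENSMUSG00000018604) lies on the plus strand at chr5:119670669-119684724, and Tbx5 begins 148 kb past its end. Sites are named here by their distance from the gene start, with a minus sign for upstream positions. Of the β-catenin consensus summits in controls, 12 were assigned to Tbx2 and 10 to Tbx3.

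The sequences of 7 of these 22 β-catenin sites are shown, because they include the sites with the highest fold enrichment at each gene, all sites with a TCF/LEF core and the site nearest to an H3K27ac summit. Each is the 200 bases around the summit on the plus strand of mm10, with the TCF/LEF core in capitals where the window held it (ATCAAAG or TTCAAAG on either strand). The windows at Tbx2 are chr11:85632504-85632703 (-199.9 kb), chr11:85714841-85715040 (-117.6 kb) and chr11:85799990-85800189 (-32.5 kb). Those at Tbx3 are chr5:119499645-119499844 (-170.9 kb), chr5:119553694-119553893 (-116.9 kb), chr5:119597055-119597254 (-73.5 kb) and chr5:119609196-119609395 (-61.4 kb).
Tbx2 -199.9 kb: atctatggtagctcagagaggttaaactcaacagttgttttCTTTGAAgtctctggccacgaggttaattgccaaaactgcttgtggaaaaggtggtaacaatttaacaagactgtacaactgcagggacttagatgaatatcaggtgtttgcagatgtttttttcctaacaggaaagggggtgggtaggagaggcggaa
Tbx2 -117.6 kb: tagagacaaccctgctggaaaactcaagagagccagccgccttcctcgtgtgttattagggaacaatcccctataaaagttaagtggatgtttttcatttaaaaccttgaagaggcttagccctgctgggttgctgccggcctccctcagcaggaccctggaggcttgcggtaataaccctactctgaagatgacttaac
Tbx2 -32.5 kb: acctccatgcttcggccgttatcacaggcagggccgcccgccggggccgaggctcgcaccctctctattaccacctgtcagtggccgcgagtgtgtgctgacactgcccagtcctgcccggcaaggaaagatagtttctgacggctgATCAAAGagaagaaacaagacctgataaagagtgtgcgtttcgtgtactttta
Tbx3 -170.9 kb: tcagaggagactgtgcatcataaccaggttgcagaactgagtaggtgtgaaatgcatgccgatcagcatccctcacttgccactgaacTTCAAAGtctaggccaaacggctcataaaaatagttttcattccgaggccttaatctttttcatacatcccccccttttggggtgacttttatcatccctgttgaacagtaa
Tbx3 -116.9 kb: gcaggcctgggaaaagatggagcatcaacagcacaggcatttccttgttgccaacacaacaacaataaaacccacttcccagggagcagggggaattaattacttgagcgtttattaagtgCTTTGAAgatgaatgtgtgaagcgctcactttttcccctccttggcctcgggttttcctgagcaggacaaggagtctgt
Tbx3 -73.5 kb: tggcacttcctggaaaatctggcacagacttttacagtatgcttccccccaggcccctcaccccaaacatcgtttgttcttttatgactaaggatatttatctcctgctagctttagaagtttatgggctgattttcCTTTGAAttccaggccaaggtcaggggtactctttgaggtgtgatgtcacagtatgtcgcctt
Tbx3 -61.4 kb: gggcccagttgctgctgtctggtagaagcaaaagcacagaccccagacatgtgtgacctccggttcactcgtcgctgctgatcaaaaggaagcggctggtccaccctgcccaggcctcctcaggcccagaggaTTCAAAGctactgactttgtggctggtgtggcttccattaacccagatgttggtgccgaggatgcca

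The core was present at 6 of 22 sites (27.3%, 95% Wilson interval 13.2 to 48.2%), against 28.6% of all 16193 β-catenin consensus summits of wild-type controls on chromosomes 1 to 19, X and Y. Intervals of shares cover counting error only. By gene, 2 of 12 windows at Tbx2 and 4 of 10 at Tbx3 held a core. The core centres lay between 9 and 56 bp from the summit. The form ATCAAAG was found only in the window of Tbx2 -32.5 kb, 1 of 22 (4.55%) against 15.1% of all summits, and the other 5 cores were TTCAAAG.

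A T-box site, GGTGTGA on either strand, was present at 3 of 22 sites (13.6%, interval 4.75 to 33.3%), against 2.82% of all summits. These were Tbx2 -77.0 kb, Tbx3 -170.9 kb and Tbx3 -73.5 kb, and it lay beside a TCF/LEF core in both windows at Tbx3, where it is printed in lower case. The GLI site TGGGTGGTC was found in 0 of the 22 windows and in 0.426% of all. A match says only that the letters are present in the window.

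The β-catenin summits counted by the rule were placed differently at the 2 genes. At Tbx2, all 12 consensus summits lay upstream, in introns of Bcas3, a long gene that ends 6.49 kb before the Tbx2 start, and 0 lay inside or past Tbx2. At Tbx3, 7 lay upstream, 1 at the promoter and 2 in the interval towards Tbx5. The rule left less room past Tbx2, since Tbx4 begins 44.5 kb past its end and Tbx5 148 kb past that of Tbx3. The counts past the 2 genes therefore cannot be compared. Of these 10, 6 lay in no annotated gene and 4 in Tbx3os1, a noncoding gene on the opposite strand that overlaps the Tbx3 start.

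**Figure D1:**
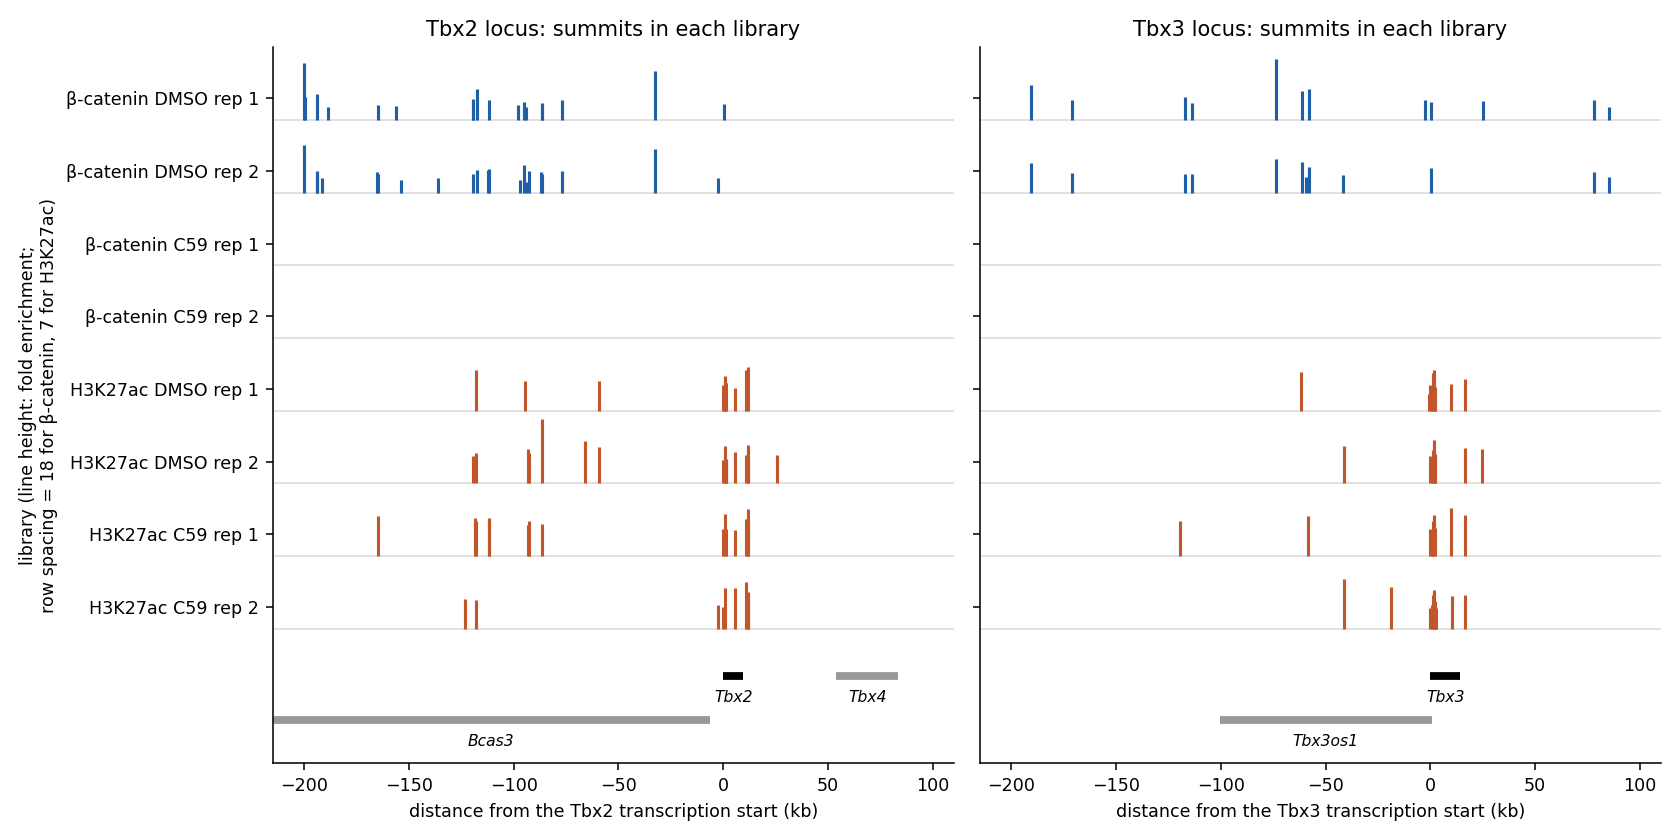
Each vertical line is a summit in 1 of the 8 libraries (rows), placed by its distance from the Tbx2 (left) or Tbx3 (right) start in kb, and its height is the fold enrichment, with a row spacing of 18 for β-catenin and 7 for H3K27ac. Horizontal bars are gene bodies. β-catenin lines fill both control rows and are missing from both C59 rows, whereas H3K27ac lines stand over the 5′ parts of both genes in all 4 libraries.

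The highest fold enrichment at either gene was at Tbx2 -199.9 kb (consensus 14.4), a summit just inside the 200 kb limit of the rule. Its fold was 14.1 and 11.9 in control replicates 1 and 2, from coverages of 77 and 72 fragments. The next β-catenin summit outward, 213 kb from the gene, had a consensus fold of 6.86. Tbx2 -32.5 kb was the site nearest to the gene, in introns of Bcas3 and 2610027K06Rik, and had folds of 12.1 and 10.8 from coverages of 36 and 42.

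At Tbx3, the highest value was at -73.5 kb (consensus 13.9), in an exon of the predicted gene Gm43399 and an intron of Tbx3os1. Its folds were 15.2 and 8.46, from coverages of 49 and 31, and this was the widest gap between replicates among the 22 sites (-0.85 on the log2 scale, replicate 2 against replicate 1). All 22 sites were listed in both replicates, which the consensus list requires of every summit. The median absolute log2 difference between replicates was 0.24 at these sites, as against 0.23 over all 16193 summits. Folds were higher in replicate 2 at 11 of the 22 sites, so neither replicate stood above the other.

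The other sites among the 5 highest per gene were weaker. Tbx2 -117.6 kb had folds of 7.80 and 5.74 and lay 329 bp from an H3K27ac summit. Tbx2 -193.6 kb had folds of 6.40 and 5.41, and Tbx2 -111.8 kb had 4.97 and 5.90. These 3 sites differed between replicates by at most 0.44 on the log2 scale.

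Tbx3 -190.3 kb, the outermost summit on that side, had folds of 8.67 and 7.25, and the next one outward, at 246 kb, had a consensus fold of 7.19. Tbx3 -61.4 kb and Tbx3 -57.9 kb, neighbours within Tbx3os1, had folds of 7.08 and 7.57, and of 7.72 and 6.47, respectively. Tbx3 -170.9 kb had 5.06 and 4.93. With 5.61 and 4.64 at Tbx3 -116.9 kb, the 6 sites with a core ranged from a consensus fold of 5.73 to 14.4.

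As a group, the sites had folds below the typical β-catenin summit. The median consensus fold was 5.82 at the 22 sites and 6.76 over all summits, and 8 of 22 were above the median of all. The 3 sites above 90% of all summits (Tbx2 -199.9 kb, Tbx2 -32.5 kb and Tbx3 -73.5 kb) each had a TCF/LEF core. How often summits of such fold have a core over the genome was not computed, so a link between fold and core was not tested. On the side towards the neighbours, the outermost summit counted for Tbx3 was 71.2 kb past the gene (fold 4.78) and the nearest left out, closer to Tbx5, was 109 kb past it (fold 5.16). For Tbx2, the nearest one left out was 34.2 kb past the gene, beside Tbx4 (fold 6.08).

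The number of sites, in contrast, was high. Counted within 200 kb of the gene body without the rule on neighbours, Tbx2 had 17 consensus summits and Tbx3 had 12, whereas the median of 21911 protein-coding genes was 2. Fewer summits than at Tbx2 were found at 99.3% of the genes, and fewer than at Tbx3 at 98.0%.

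**Figure D2:**
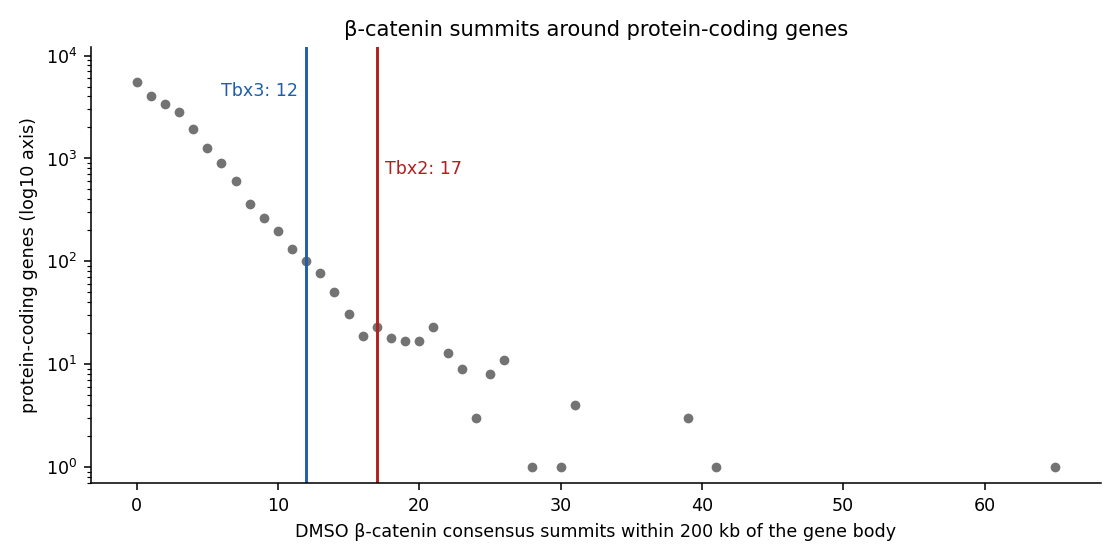
The x axis is the number of β-catenin consensus summits of wild-type controls within 200 kb of a gene body, and each point gives the number of protein-coding genes (log10 axis) with that count. The lines mark Tbx2 with 17 and Tbx3 with 12, both far above the median of 2.

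The promoters of the 2 genes differed in β-catenin. Tbx3 had a consensus summit 205 bp past its first start, in the untranslated part of an exon and 12 bp from another annotated start, with folds of 4.51 and 6.01 and coverages of 19 and 29. At Tbx2 there was no consensus summit less than 1 kb from the start. A summit 127 bp past the start was listed in control replicate 1 (fold 3.88), and another 2.33 kb upstream in control replicate 2 (fold 3.74), each in that replicate alone. In all, 15 summits at the 2 genes were listed in a single control replicate and lay outside the consensus peaks.

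To determine which of these summits were still found when WNT secretion was blocked, the lists after C59 were searched. In wild-type controls, replicates 1 and 2 held 18 and 21 β-catenin summits at Tbx2, and 12 and 12 at Tbx3. After C59, both replicates held 0 at each gene. The groups did not overlap at either gene (exact permutation p = 0.333, two-sided, n = 2 per group). Both C59 libraries were also lower than both control libraries at 79.6% of the 21911 protein-coding genes, so this pattern is shared with most genes.

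Site by site, 0 of the 22 control summits lay inside a consensus peak after C59, inside a peak of either C59 replicate, or within 1 kb of a C59 summit. Over the genome, 98.7% of the 16238 control summits were likewise outside the C59 consensus peaks. Among the 6 WNT targets listed for comparison, 5 had a promoter summit in controls (Axin2, Sp5, Nkd1, Notum and Tcf7), and Axin2, the feedback inhibitor of the pathway, was the only 1 of them that kept it after C59. A lower signal in bulk chromatin can come from fewer cells with β-catenin at a site or from less β-catenin per cell, which cannot be told apart.

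Absence from a list does not show absence of binding, and the limit for listing was stricter after C59. The lowest −log10 p listed was 5.69 and 5.72 after C59 and 3.89 and 3.79 in controls, since the q-value depends on how many regions pass. At the background coverage of the library, which was from 1.57 to 1.83 fragments in the 4 β-catenin libraries, a summit needed a coverage of 11 to be listed after C59 and of 8 in controls. Counting only control summits that reach the C59 limit left 14 and 18 summits at Tbx2 and 11 and 11 at Tbx3, still against 0. This comparison was chosen after seeing the data.

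The coverage that a C59 library would have needed at each site was estimated by assuming that its local expected coverage stood in the same ratio to background as in controls. It was below the control coverage, both taken relative to background, at 20 of the 22 sites, and below 50% of it at 7. The lowest limits were 23.5% at Tbx2 -199.9 kb, 29.6% at Tbx3 -73.5 kb and 31% at Tbx2 -32.5 kb. At the Tbx3 promoter the limit was 62.6%. At Tbx2 -94.3 kb (106%) and Tbx3 +85.2 kb (114%) it exceeded the control coverage, so a loss there was not detectable at this depth. These limits are approximate, since the peak caller also requires a minimum length.

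**Figure D3:**
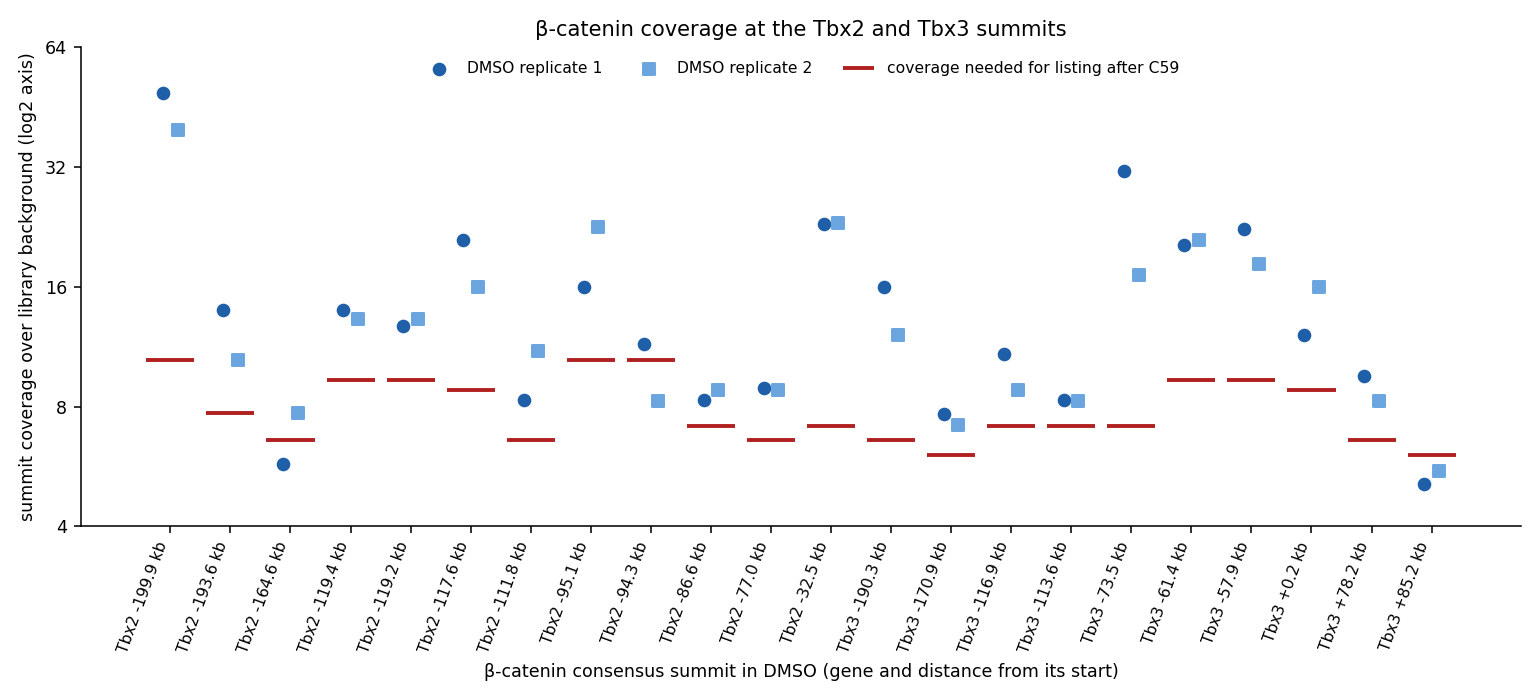
Points give the coverage at each of the 22 β-catenin sites relative to the background of the library in both control replicates (log2 axis), and the red line gives the coverage at which the site would be listed after C59. Both points of Tbx2 -199.9 kb, Tbx2 -32.5 kb and Tbx3 -73.5 kb lie far above the line, whereas those of Tbx3 +85.2 kb lie below it.

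H3K27ac was listed at both genes with and without C59. At Tbx2, control replicates held 10 and 17 H3K27ac summits and C59 replicates 15 and 9 (13.5 ± 4.95 and 12 ± 4.24, SD, n = 2; exact permutation p = 0.667, two-sided). At Tbx3, the counts were 9 and 9 in controls and 9 and 11 after C59 (9 ± 0 and 10 ± 1.41; exact permutation p = 1). By summit count, the groups overlapped at Tbx2 and shared the value 9 at Tbx3. Over protein-coding genes, both C59 counts were lower than both controls at 15.7% and higher at 5.12%. In peaks, Tbx3 had 5 and 5 in controls and 6 and 6 after C59 (exact permutation p = 0.333). These covered 3114 and 3113 bp in controls and 3428 and 3836 bp after C59 (exact permutation p = 0.333). The share of genes with such a separation in peaks or covered length was not computed.

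Of the control consensus summits of H3K27ac, 10 of 11 at Tbx2 and 7 of 7 at Tbx3 lay inside a C59 peak. Conversely, 8 of 8 consensus summits after C59 at Tbx2 and 7 of 8 at Tbx3 lay inside a control peak. Over the genome, 10.9% of control and 9.14% of C59 summits lay outside the other list, so that a single summit outside in either direction is near the genome-wide share. The summits that fell outside were at Tbx2 -59.1 kb, listed in controls, and at Tbx3 +10 kb, listed after C59.

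Merged over both treatments, the consensus lists gave 6 H3K27ac regions at Tbx2 and 4 at Tbx3, of which 8 had a summit in all 4 libraries. In the order control replicate 1, control replicate 2, C59 replicate 1 and C59 replicate 2, the region over the 5′ part of Tbx2 (chr11:85832839-85834414) had its highest folds at 3.31, 3.61, 4.02 and 3.96. Both C59 values were higher, by 0.24 ± 0.11 on the log2 scale (SE), with a limma adjusted p of 0.53. In coverage relative to background, the groups overlapped (18.97 and 22.88 in controls, 22.06 and 19.83 after C59). The share of all regions with both C59 folds higher was not computed. The region just upstream of the start (chr11:85832085-85832469) ranged from 2.14 to 2.65, both in C59 replicates, and the groups overlapped.

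Inside Tbx2 (chr11:85837791-85838362), folds were 2.18, 3.02, 2.55 and 3.95, a change of 0.34 ± 0.27, and the replicates of either treatment differed more than the treatments. The change rested on single libraries, since it was -0.02 without C59 replicate 2 and 0.69 without C59 replicate 1 (limma adjusted p = 0.99 and 0.55). Past the Tbx2 end (chr11:85843453-85844747), folds were 4.20, 3.67, 4.54 and 4.56, and both C59 values were again higher (0.24 ± 0.13, limma adjusted p = 0.58). In coverage relative to background, the groups overlapped there as well (11.5, 9.71, 10.4 and 10.8). The distal region in Bcas3 (chr11:85714369-85714806), next to the β-catenin site Tbx2 -117.6 kb, had 3.92, 2.96, 3.39 and 2.80 (-0.12 ± 0.18). Its direction turned with the library left out, from 0.11 without control replicate 1 to -0.35 without control replicate 2. After C59, H3K27ac was therefore still listed in both replicates beside a site where β-catenin was not.

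At Tbx3, the region over the 5′ part of the gene (chr5:119671079-119673490) spanned 2412 bp, longer than 99.7% of all merged regions, and had folds of 3.93, 4.20, 3.94 and 3.79 (-0.04 ± 0.11). The region upstream of the start (chr5:119669990-119670570) had 2.52, 2.64, 2.58 and 2.04 (-0.14 ± 0.13). Past the Tbx3 end (chr5:119686995-119687374), folds were 3.11, 3.41, 3.92 and 3.29 (0.17 ± 0.12). By fold, the groups overlapped in each of these 3 regions. In coverage relative to background, both C59 values were lower over the 5′ part (47.6 and 51.7 in controls, 43.5 and 37.3 after C59). They were also lower upstream of the start (29.0 and 30.9, then 27.4 and 19.2). On that scale, the limma adjusted p was 0.61 and 0.54, respectively, and the share of all regions with such a separation was not computed. Past the Tbx3 end, the groups overlapped on that scale too.

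The remaining 2 regions were missing from at least 1 library and had no test in that fit. Tbx2 -59.1 kb had folds of 2.90 and 3.49 in controls and was not listed in either C59 replicate. Tbx3 +10 kb begins just past an internal annotated start of Tbx3 and had folds of 4.65 and 3.19 after C59. In controls it was listed in replicate 1 alone, at 2.54.

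Across the 17219 H3K27ac regions with a summit in all 4 libraries, limma (log2 of the highest fold per region, each library centred on its median) called 0 higher (0%) and 0 lower (0%) after C59 at an adjusted p below 0.05, with 1764 below 0.05 unadjusted. Of the 8 regions at the 2 genes, 0 were below 0.05 unadjusted, and the lowest adjusted p was 0.53. Their median change was 0.11, within a range of -0.14 to 0.34, as against a median of 0.03 over all regions. With coverage over background in place of fold, the median of the 8 was 0.01, within -0.24 to 0.19, and that of all regions was 0.03, so the order of the medians depended on the scale. The 95% interval of the change was -0.04 to 0.51 for the 5′ region of Tbx2 and -0.31 to 0.22 for that of Tbx3.

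**Figure D4:**
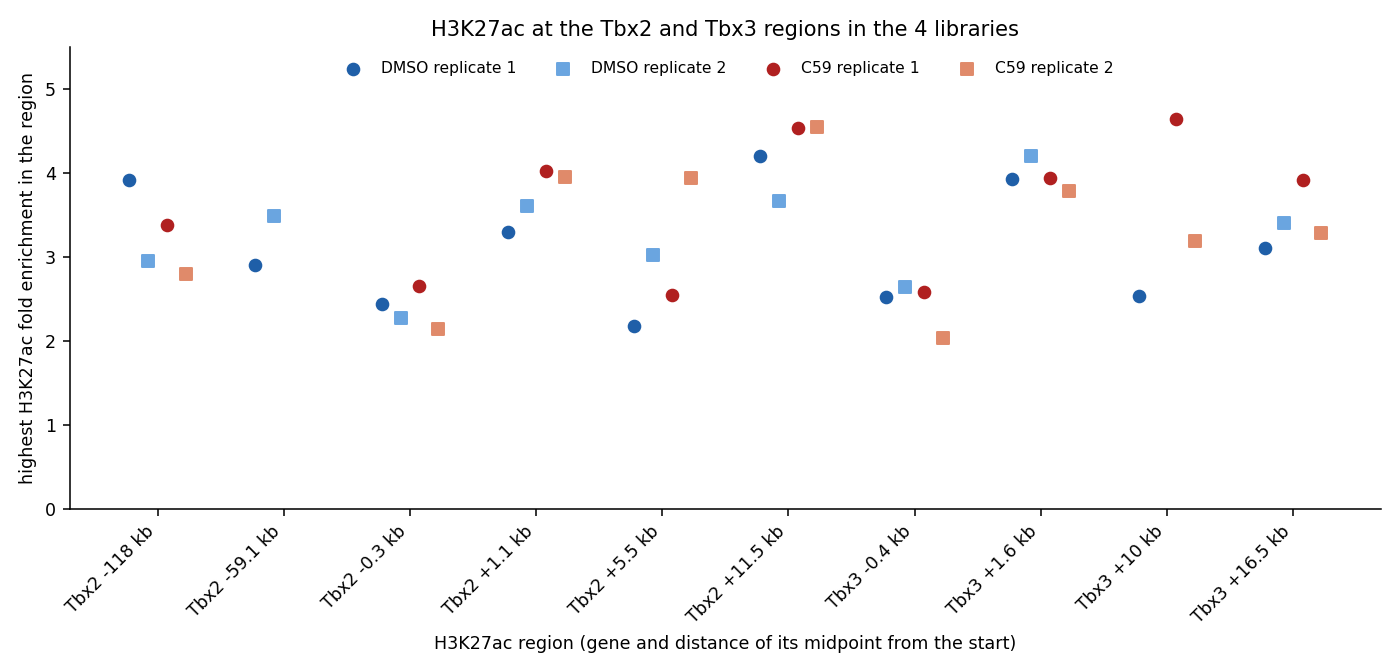
Points are the highest H3K27ac fold enrichment in each of the 10 merged regions (x axis, by distance of the midpoint from the gene start) in the 4 libraries. Control and C59 points mix in most regions, and Tbx2 -59.1 kb has no C59 point.

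The fold of the regions over the 5′ parts of both genes was low, although their coverage was above that of the median region (17.4 times the background). The highest folds over the 5′ part of Tbx3 came from coverages of 128, 149, 138 and 111 fragments, which was from 37.3 to 51.7 times the background of the library. The expected coverage that the peak caller set there was from 9.61 to 12 times the background, because no input was used and the expectation follows the surrounding 10 kb. By mean fold, this region exceeded 10.3% of all regions, and by mean coverage over background 80.6%. For the 5′ region of Tbx2 the shares were 7.1% and 56.4%. By coverage, the region upstream of the Tbx3 start exceeded 64.6% of all regions. The remaining fitted regions were below the median, from 1.86% to 43.9%.

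H3K27ac summits were counted separately near the genes and farther away. Within 5 kb of the gene body, a limit chosen after their values were seen, Tbx2 had 7 and 9 summits in controls and 7 and 7 after C59, and Tbx3 had 8 and 7, and 7 and 9. Farther out, Tbx2 had 3 and 8 in controls and 8 and 2 after C59. The distal counts of Tbx2 thus differed more between replicates of a treatment than between treatments. At Tbx3, the distal counts were 1 and 2 in controls and 2 and 2 after C59.

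**Figure D5:**
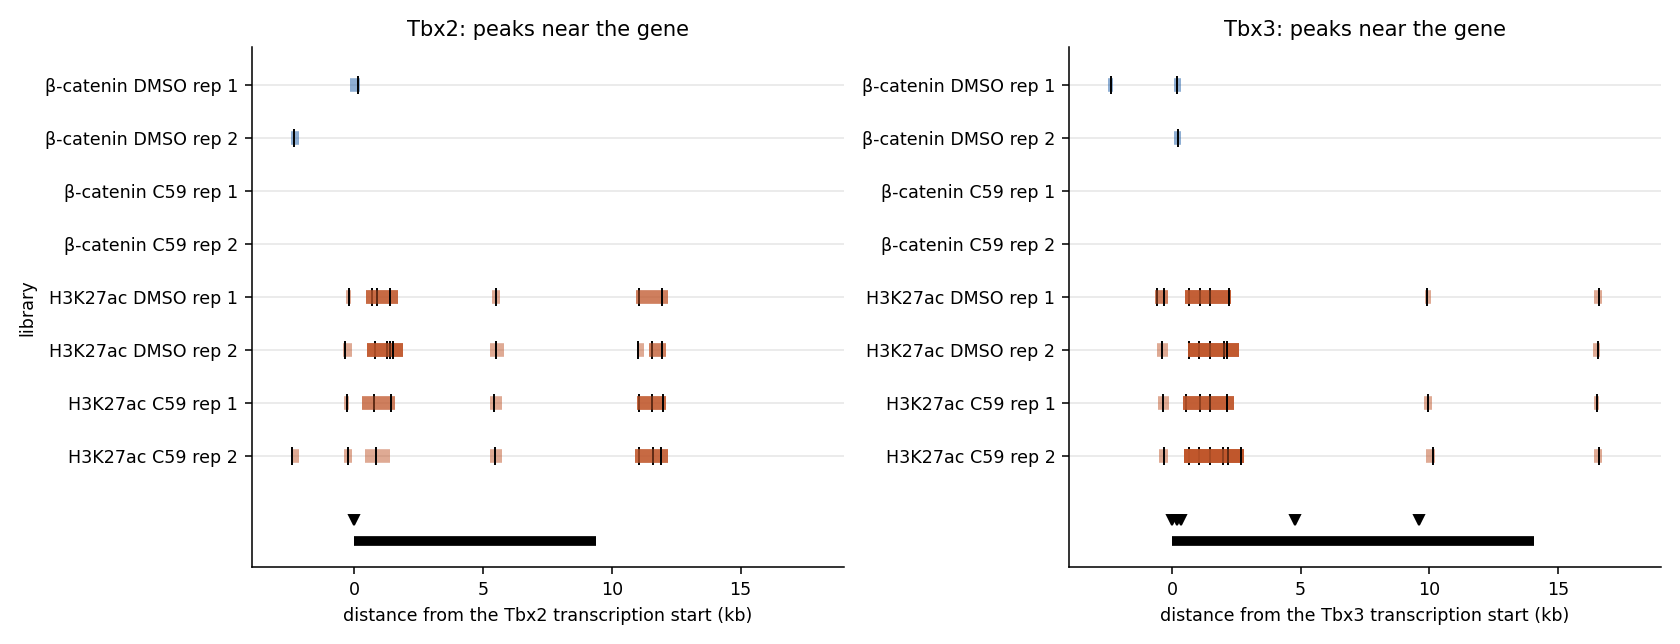
Boxes are peaks and black ticks are summits in the 8 libraries (rows) around Tbx2 (left) and Tbx3 (right), by distance from the gene start in kb, with the gene body as a black bar and annotated starts as triangles. At Tbx3 the β-catenin peak of both control replicates falls into the gap between 2 H3K27ac regions, and the region near +10 kb is present in 3 of the 4 H3K27ac libraries.

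Despite the shared neighbourhood, the β-catenin consensus summits lay outside the H3K27ac consensus peaks. In wild-type controls, 0 of the 22 β-catenin sites lay inside an H3K27ac consensus peak (Wilson interval 0 to 14.9%), whereas 22.1% of all summits did. With peaks extended by 1 kb, 2 of 22 (9.09%) were included, against 34.1% of all. In the replicate lists, Tbx2 -119.4 kb lay inside an H3K27ac peak in control replicate 2, Tbx2 -111.8 kb in C59 replicate 1, and the other 2 libraries held none. Some β-catenin summits of the control replicate lists did lie inside H3K27ac peaks of control replicate 2. Examples at Tbx2 lay at -86.3 kb (β-catenin replicate 1) and -92.8 kb (β-catenin replicate 2).

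The Tbx3 promoter site lay 454 bp from the nearest H3K27ac summit, between the regions on either side of the start. The median distance from a β-catenin site to an H3K27ac summit was 23.2 kb at Tbx2 and 67.1 kb at Tbx3, and 20.3 kb over all 16193 summits. Distal H3K27ac summits were summed over the 4 replicate lists, so 1 place can count more than once. The genome-wide share of such summits near a β-catenin site was not computed. Of the 28 distal summits, 14 lay within 1 kb of a β-catenin site of controls (12 of 21 at Tbx2 and 2 of 7 at Tbx3). The highest of these lay beside Tbx2 -86.6 kb, with a fold of 6.18 in control replicate 2 and of 3.12 in C59 replicate 1, and it was not listed in the other 2 libraries.

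Within the T-box family, Tbx2 and Tbx3 were among 7 of 17 genes with an H3K27ac consensus summit less than 1 kb from a start in either treatment, together with Tbx4, Tbx5, Tbx15, Tbx18 and Mga. A β-catenin consensus summit there was found at 4 of 17 in controls (Tbx3, Tbx6, Tbx18 and T) and at 0 after C59. Within 200 kb, 16 of 17 had at least 1 β-catenin consensus summit in controls and 0 after C59. The highest counts were 17 at Tbx2, 15 at Tbx4, 12 at Tbx3, 11 at Tbx18 and 10 each at Tbx5 and Tbx15. The windows of Tbx2 and Tbx4 overlap, as do those of Tbx3 and Tbx5, so these counts share summits.

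Split by the nearer gene, the Tbx4 and Tbx5 sides had 6 and 7 β-catenin consensus summits in controls and 0 after C59. H3K27ac summits numbered 20 in controls and 16 after C59 at Tbx4, and 16 and 12 at Tbx5. Both pairs thus carried β-catenin summits on either side in controls. Tbx3 had 1 summit less than 1 kb from a start, whereas Tbx2, Tbx4 and Tbx5 had 0.

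Genes were ranked by how closely their summit counts in the 8 replicate lists matched those of Tbx2 or Tbx3, by Euclidean distance over square roots of the counts. Nearest to Tbx2 was Sptlc1 (distance 0.58), with 24 and 28 β-catenin summits in controls where Tbx2 had 23 and 28, followed by Hoxd1, Dclk1, Nfia and Adk. Nearest to Tbx3 was Tcf12 (distance 0.29), with 14 and 15 where Tbx3 had 14 and 14, followed by Stk11ip, Usp46, Sdk2 and Fzd7. All of these had 0 β-catenin summits in both C59 libraries, but these counts entered the ranking, so this is not a separate observation.

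The tissue label was checked by promoter H3K27ac. The mesenchyme genes Prrx1, Hand2 and Twist1 and the forelimb gene Tbx5 were marked in all 4 libraries. Of the 3 hindlimb genes listed, 2 were marked as well, so these do not separate forelimb from hindlimb. Tbx4, which borders Tbx2, was marked in all 4 libraries, with folds of 3.25 and 4.63 in controls and 3.36 and 3.52 after C59. Isl1 was marked in control replicate 2 (3.86) and in both C59 replicates (4.79 and 3.52), and Pitx1 in 0 of 4. Of the genes for other cells, Epcam (epithelium) was marked in 4 libraries, Cdh5 (endothelium) in 3 and Pax3 (muscle precursors) in 2, whereas Krt5, Krt14, Hba-a1, Gata1, Kdr, Sox1, Neurod1 and Myod1 were marked in 0.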

How the data were processed

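The 8 replicate and 4 consensus peak lists of β-catenin and H3K27ac ChIP-seq on forelimb buds were read. The 4 input samples were not used here. The authors mapped reads to mm10 with Bowtie2 2.4.5, discarded alignments with a mapping quality under 30 and ran macs2 2.2.7.1 without input. For the consensus, duplicates were taken out by the authors (Picard 2.27.4), replicates sampled to equal depth and summits found in both kept. The deposited values are the fold enrichment, a ratio of coverage to expected coverage (1 added to each), with −log10 values of the p-value and of the q-value. Because q is set within a list, lists with fewer peaks have a stricter limit on p.

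Fold and p together gave whole coverages, to within 0.01, at every summit whose −log10 p did not exceed 250. The lowest expected coverage served as the background, from 2.69 to 3.17 in the H3K27ac libraries. Summit counts were compared by exact permutation tests and H3K27ac regions with limma 3.58.1 (R 4.3.3) on log2 folds, with Benjamini-Hochberg adjustment over 17219 regions. Other steps used Python 3.11.15, numpy 2.4.6, pandas 2.3.3 and scipy 1.17.1. The functions were tested on simulated data. Per the study's methods, biological replicates came from different embryos, drawn from several litters per condition, and the litters behind each pooled library are not given in the sources used here. Alternatives comprised a −log10 q of at least 5, a 100 kb window, joined summits, other motif windows, other scalings, each replicate left out and a replicate block.

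Sites named with values were those less than 1 kb from a start of either gene, the 5 highest folds per gene, those with a TCF/LEF core and each H3K27ac region fitted. The members and lists were chosen with earlier results of these data known.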

Additional observations from a re-analysis of the deposited data

How the results depend on the processing

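Both C59 lists held 0 β-catenin summits at each gene, so the alternatives run could not reverse the direction of that difference. Its size ranged from -21.0 to -8.5 summits at Tbx2 and from -12.0 to -8.0 at Tbx3. The difference in H3K27ac summits at Tbx2 (-1.5, C59 minus control) had no stable direction: it was 1 with a −log10 q of at least 5, from -5 to 2 when a replicate was left out (2 without control replicate 2, 1.5 without C59 replicate 2), and 0 with summits joined within 500 bp. At Tbx3, the difference in H3K27ac summits (1) was 1.5 with a −log10 q of at least 5 (5 and 5 in controls, 7 and 6 after C59). It was 2 with joined summits (6 and 6, then 8 and 8) and 0.5 within 100 kb. The groups did not overlap in the first 2 of these settings (exact permutation p = 0.333 in each), and the share of genes with such a separation in them was not computed. For all of these differences, the exact tests could not pass 0.05. Leaving out a replicate moved the H3K27ac difference at Tbx3 between 0 and 2, and the median change of the regions (0.11) between 0.03, without C59 replicate 1, and 0.12, without control replicate 1 or without control replicate 2, where 9 regions could be fitted. The region just upstream of the Tbx2 start (0.05) ranged from -0.07 to 0.16 in these fits. With missing regions set to the lowest fold of the list, limma called 1513 regions over the genome (655 higher and 858 lower), among them Tbx2 -59.1 kb as lower (adjusted p = 0.021, median over 10 regions 0.11), and on coverage over background it called 3, with a median of 0.01 over the 8 regions. Filling in missing regions places every unlisted region at a floor by construction. The share of β-catenin sites with ATCAAAG alone was 4.55%. The share of genes with fewer β-catenin summits was 97.1% within 100 kb and 99.6% and 99.7% in the control replicate lists for Tbx2, and 95.5% within 100 kb and 96.1% in control replicate 2 for Tbx3.

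The H3K27ac libraries gave no sign of pairing by replicate number (correlation of replicate differences 0.014 over 17219 regions). Pairing of the β-catenin libraries was not tested. With a replicate block, the paired differences stayed at -19.5 and -12.0 for β-catenin (exact sign-flip p = 0.5, the smallest for 2 pairs) and at -1.5 and 1 for H3K27ac (p = 1), and limma called 0 regions (lowest adjusted p at the 2 genes 0.49), so no call changed.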
